A study of Mus musculus with 18 samples.

Results

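The genes described here are the ligands and receptors of the Notch pathway and the non-coding transcript that lies across the start of Dll1, in mouse embryos at embryonic day 9. There are 9 of them among the 53465 gene identifiers of the deposited table. The 8 protein-coding genes were chosen by family: the ligands Dll1, Dll3, Dll4, Jag1 and Jag2 and the receptors Notch1, Notch2 and Notch3. The 9th, the long non-coding RNA A930024N18Rik, was chosen on its level in the posterior mutant libraries of this same data set, so its posterior values are a description and carry no test.

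Notch signalling passes between touching cells. A ligand of the Delta or Jagged family on one cell binds a Notch receptor on the next, the receptor is cleaved, and its inner part enters the nucleus, joins the DNA-binding protein Rbpj and switches on Hes and Hey repressor genes. In the tail end of the embryo this pathway drives the segmentation clock that sets off one somite after another, in the neural tube it keeps progenitors from becoming neurons, and in vessels it sorts arteries from veins.

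The 18 libraries came from 9 embryos with 20 to 24 somites, 5 of them controls and 4 mutant for Meis1 and Meis2. In the mutants, called double knockouts (DKO) here, both genes were conditionally deleted with Delta1Cre, a Cre recombinase named for Delta1, the older name of Dll1. The labels do not say whether the Cre sits in the Dll1 locus or in a transgene, whether the controls carry it, or whether they carry the conditional alleles. Each embryo gave a posterior piece, the axial bud with its most recent somites, and an anterior piece, the older part of the axis that bears somites. This gives 4 groups of libraries, control and DKO for each piece, with n = 5 for controls and n = 4 for DKO. Each library is labelled with 1 sex and 1 somite number, and libraries were matched to embryos by these labels and the genotype, so that anterior and posterior DKO 4 carry the same labels.

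Total expected counts ran from 12.7 to 38.2 megacounts per library. Levels below are counts per megacount of the library (CPM) after scaling between libraries with the TMM method of edgeR (a trimmed mean of log ratios), and 3 counts, taken as the floor of detection, correspond to 0.0791 to 0.233 CPM. All 8 of 8 presomitic mesoderm markers were called higher in the posterior piece in both genotypes by edgeR. They summed to 210.0 to 316 CPM in posterior controls against 20.2 to 23.6 CPM in anterior controls. All 10 of 10 neural markers were called lower in the posterior piece in both genotypes. The 8 somite markers were split, with 4 called higher and 4 lower posteriorly in controls, and 2 and 2 in DKO. Over all genes, 12.1% were called higher and 13.3% lower in controls, and 8.76% and 9.7% in DKO. Meis1 and Meis2 remained detectable in DKO libraries, with log2 fold changes of −0.30 and −0.41 in the anterior and −0.55 and −0.52 in the posterior piece, and none passed the threshold of 0.05 for the adjusted p (smallest adjusted p = 0.0522, edgeR). Control embryo 1 went against its label: it is labelled female, but its 2 libraries had 151 to 162 CPM over 4 genes of the Y chromosome, against 0.359 to 0.949 CPM in the other libraries labelled female. Leaving this embryo out kept the same 5 genes past the threshold in the comparison of regions in controls, described below.

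A930024N18Rik and Dll1 share sequence, and that bears on every value of both. On build GRCm38, Dll1 (ENSMUSG00000014773) runs from chr17:15367354-15376872 on the minus strand and A930024N18Rik (ENSMUSG00000097566) from chr17:15375000-15379475 on the plus strand. The non-coding gene has 1 annotated transcript of 3 exons. Its exons share 867 bases with Dll1 exons, which is 21.9% of its own 3955 exonic bases and 20.5% of the 4219 of Dll1. Most of that overlap, 624 bases, lies in the first exon of the 11-exon Dll1 transcript (chr17:15375187-15375976). The other 3088 exonic bases of A930024N18Rik lie outside every Dll1 exon.

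The stretches just upstream of the Dll1 starts are therefore inside the non-coding transcript. They are shown from RefSeq on GRCm38.p6, read on the minus strand toward Dll1, 5′ to 3′, and trimmed to bases outside annotated Dll1 exons. The first (chr17:15375977-15376073) lies in exon 2 of A930024N18Rik and the second (chr17:15376933-15377182) in its exon 3. Capitals mark TGACAG, the core motif known for Meis proteins.
Upstream of the main Dll1 start: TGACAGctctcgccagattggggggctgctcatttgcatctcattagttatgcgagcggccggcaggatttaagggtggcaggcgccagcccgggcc
Upstream of the second RefSeq Dll1 start: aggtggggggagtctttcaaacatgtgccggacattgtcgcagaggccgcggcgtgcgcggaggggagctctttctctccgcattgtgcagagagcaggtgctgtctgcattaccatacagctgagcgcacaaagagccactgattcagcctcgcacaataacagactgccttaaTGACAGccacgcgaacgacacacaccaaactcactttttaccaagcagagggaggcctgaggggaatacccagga

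The bases joined by annotated splicing of A930024N18Rik are shown next, since no annotated Dll1 transcript joins them. They are taken from the GENCODE M21 transcript on GRCm38 and read on the plus strand, with the last 15 bases of the upstream exon in capitals.
Junction of exons 1 and 2: GTCTCTCGGCTCCAGcttcttcgcggaggg
Junction of exons 2 and 3: AGCCTCCCACTCGCGgacacccccagacac

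The intron between exons 1 and 2 has 166 bases (chr17:15375366-15375531) and reads GT at its start and AG at its end on the plus strand, the usual splice signals. The intron between exons 2 and 3 has 355 bases (chr17:15376376-15376730) and ends in CG, which is not the usual signal, and its first bases were not read. Gene-level counts do not show how many reads crossed either junction. TGACAG was found on either strand in 4 of 9 promoter windows of the protein-coding genes (both of Dll1, that of Dll4 and that of Notch3), against 19.2% of all 32851 windows of 300 bases in the table. Neither GTGGGAA, a motif known for Rbpj, nor TGATTNAT, a motif known for Pbx-Hox pairs, was found in any of the 9, against 6.38% and 3.22% of all windows. Both strands were searched, no match overlapped another, and a match is a description of letters, not of binding.

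The counts show that reads of the shared bases were divided between the genes by estimation. RSEM gives a gene a fractional count where a read could belong to transcripts of more than 1 gene. The counts of A930024N18Rik and Dll1 were whole numbers in 0 of 18 libraries each, while their sum was whole in 18 of 18 (tolerance 0.015 counts). Genes that overlap other members on the opposite strand gave the same picture. Notch3 was whole in 1 library and Dll4 in 14, while the sums of Notch3 with Gm17276 and of Dll4 with Gm14207 were whole in 18 of 18. Notch1 was whole in 0 libraries, and its sum with 0610009E02Rik and Gm13568 in 18 of 18 (tolerance 0.025 counts). The counts therefore do not separate the strands in these exons. The other antisense counts were small beside their partners, except at Notch1, where 0610009E02Rik stood at 5.58 to 25.4 CPM.

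In control libraries A930024N18Rik was near the floor. It was at 0.519, 0.303, 0.341, 0.283 and 0.284 CPM in anterior controls 1 to 5 and at 0.263, 0.253, 0.344, 0.271 and 0.304 CPM in posterior controls 1 to 5, which is 4.39 to 9.97 counts per library. In posterior DKO 1 to 4 it was at 3.28, 1.80, 3.34 and 2.68 CPM (51.6 to 86.6 counts). All 4 posterior DKO libraries lay above every control library of either piece. In anterior DKO 1 to 4 it was at 1.02, 0.921, 0.260 and 0.461 CPM: DKO 1 and 2 lay above all anterior controls, DKO 4 lay below anterior control 1, and DKO 3 lay below all of them.

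The group means were 0.287 ± 0.0372 CPM in posterior controls (SD, n = 5) and 2.78 ± 0.715 CPM in posterior DKO (n = 4), with a fitted log2 difference of 3.24 (SE 0.269), the difference by which this gene was chosen. The anterior means were 0.346 ± 0.0997 CPM (n = 5) and 0.666 ± 0.365 CPM (n = 4). The anterior libraries were not used to choose it, although they come from the same embryos. The anterior test was planned in the main fit, but the gene did not pass the filter on low counts there. In the fit without a filter, given instead, its log2 fold change was 1.02 (SE 0.444, unadjusted p = 0.0353, adjusted p = 0.559, edgeR), which did not pass. Within embryos, the posterior level of A930024N18Rik was 1.95 to 12.8 times the anterior one in DKO, higher in 4 of 4. Those posterior values are the ones by which it was chosen, so the count is a description only. The fold of 12.8 is that of DKO embryo 3, whose anterior library holds 4.51 counts, near the floor of 3. In controls the posterior level was 0.506 to 1.07 times the anterior one, higher in 2 of 5.

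Of the counts given to the pair, A930024N18Rik took 0.219 ± 0.0409% in posterior controls (SD, n = 5) and 1.85 ± 0.357% in posterior DKO (n = 4). In the anterior piece the shares were 0.538 ± 0.150% (n = 5) and 0.739 ± 0.325% (n = 4). If every read assigned to the non-coding gene belonged to Dll1, at most 2.13% of the summed count of any library would move to Dll1. How many reads given to Dll1 in the shared bases came from the other strand cannot be read from these counts, and a small share of them would be as large as the whole A930024N18Rik count. How the reads were divided was not tested. Posterior controls had more Dll1 than any anterior library, 116 to 159.9 CPM, and the lowest mean share of the 4 groups. Posterior DKO had the highest mean Dll1 of the 4 groups, 147 CPM, and the highest mean share.

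**Figure D1:**
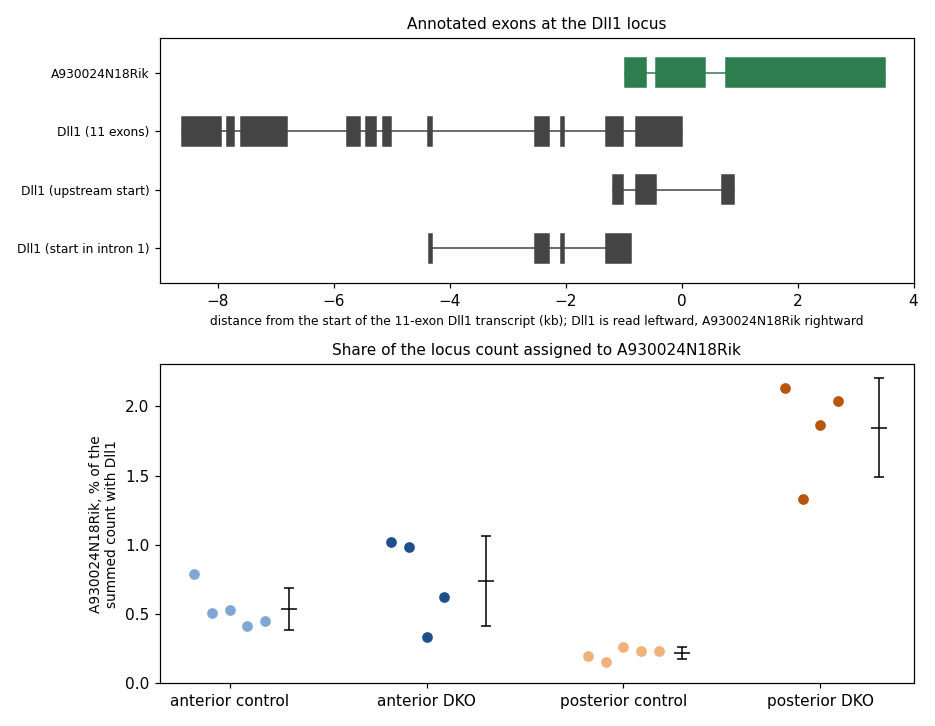
Top, annotated exons of A930024N18Rik and of 3 of the 6 Dll1 transcripts against distance in kb from the start of the 11-exon Dll1 transcript. Bottom, percent of the summed A930024N18Rik and Dll1 count given to A930024N18Rik in each library (points), with the group mean and SD (bars); the 4 posterior DKO libraries, at 1.34 to 2.13%, sit above all others.

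Of the genes other than A930024N18Rik whose starts lie within 250 kb of that of Dll1, 5 passed the filter: Fam120b, Psmb1, Tbp, Pdcd2 and Prdm9. In either comparison of DKO with control, 0 of 5 passed the threshold by edgeR, and 0 of 5 had an unadjusted p below 0.05. Over all genes 0.0394% passed in the anterior and 0.0126% in the posterior piece, and 13% and 11% had an unadjusted p below 0.05, so counts of 0 among 5 genes are near the background. Their log2 fold changes ran from −0.10 (Fam120b) to 0.10 (Prdm9) in the anterior piece and from −0.17 (Prdm9) to 0.12 (Psmb1) in the posterior piece.

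Dll1, a ligand of the presomitic mesoderm, the rear part of each somite and nascent neurons, was the most abundant ligand per length in every group. In anterior controls 1 to 5 it was at 65.1, 59.1, 64.3, 68.6 and 63.2 CPM and in posterior controls 1 to 5 at 130.5, 159.9, 129, 116 and 128 CPM. In anterior DKO 1 to 4 it was at 99.4, 92.6, 77.9 and 73.6 CPM and in posterior DKO 1 to 4 at 150.3, 133, 175 and 129 CPM. Every posterior library was above every anterior one, and every anterior DKO library was above every anterior control.

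Dll1 rose from anterior to posterior by 1.05 on the log2 scale in controls (SE 0.0764, adjusted p = 9.18e-07) and 0.78 in DKO (SE 0.122, adjusted p = 0.00138). It was higher posteriorly in 5 of 5 control and 4 of 4 DKO embryos. In the anterior piece it averaged 64.1 ± 3.41 CPM in controls (SD, n = 5) and 85.9 ± 12.2 CPM in DKO (n = 4), which differed by 0.42 on the log2 scale (SE 0.0841, unadjusted p = 3.75e-04) that did not pass after adjustment (adjusted p = 0.0881, edgeR). DESeq2 put it past the threshold (adjusted p = 7.90e-04, with 1.94% of all genes called), as did edgeR without the filter on low counts (adjusted p = 0.0254, with 0.274% called). Over all alternatives its adjusted p ran from 7.90e-04 to 0.309.

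Markers of neural cells, which also make Dll1, summed to 483 to 592 CPM in anterior controls and 569 to 730.3 CPM in anterior DKO, 9 of the 10 genes had a positive log2 fold change, and 0 of 10 passed the threshold by edgeR (4 at an unadjusted p below 0.05). The sum of 8 somite markers was lower in anterior DKO, 280.1 to 359.9 CPM against 374 to 442 CPM in anterior controls, but its genes were mixed in sign. Of the 8, 2 had positive log2 fold changes (Myf5 at 0.80 and Uncx at 0.32) and 6 negative ones, such as Meox1 at −0.42 and Pax1 at −0.95. None of the 8 passed the threshold by edgeR, and 6 had an unadjusted p below 0.05, Myf5 and Uncx among them. Over all genes in this comparison, 0.0394% passed and 13% had an unadjusted p below 0.05. Their part in the Dll1 difference was not tested. In such whole tissue pieces, fewer cells of a type and less RNA per cell cannot be told apart. In the posterior piece Dll1 averaged 133 ± 16.2 CPM in controls (n = 5) and 147 ± 21.2 CPM in DKO (n = 4), groups that overlapped (log2 fold change 0.14, 95% interval −0.09 to 0.38, adjusted p = 0.586). That value was 0.05 without DKO embryo 3, 0.09 without control embryo 4 and 0.22 without control embryo 2, and adjusted p over all alternatives ran from 0.471 to 0.851.

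Dll3 (ENSMUSG00000003436, chr7:28293553-28302238, minus strand) encodes a divergent ligand needed for regular somite boundaries, which works inside the cell rather than by activating receptors on neighbours. It had the steepest regional difference of the 8 genes. In anterior controls 1 to 5 it was at 18.4, 10.1, 16.8, 13.05 and 17.4 CPM and in posterior controls 1 to 5 at 47.2, 63.2, 41.2, 51.5 and 72.5 CPM. In anterior DKO 1 to 4 it was at 21.0, 29.3, 11.5 and 14.4 CPM and in posterior DKO 1 to 4 at 63.2, 55.9, 77.8 and 61.6 CPM. The pieces did not overlap in either genotype, and control and DKO overlapped in both pieces.

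The log2 fold change of Dll3 from anterior to posterior was 1.87 in controls (SE 0.184, adjusted p = 1.02e-05) and 1.76 in DKO (SE 0.245, adjusted p = 6.40e-04). Its difference between DKO and control was 0.34 in the anterior (adjusted p = 0.627) and 0.23 in the posterior piece (adjusted p = 0.554). Single embryos moved the anterior value: it was 0.06 without DKO embryo 2, 0.21 without control embryo 2 and 0.51 without DKO embryo 3, with adjusted p from 0.442 to 0.940 over all alternatives. The posterior value was 0.13 without DKO embryo 3 and 0.14 without control embryo 3. Anterior Dll3 spread widely within each genotype, with DKO 2 the highest and control 2 the lowest of the 9 anterior libraries.

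Dll4 (ENSMUSG00000027314, chr2:119325784-119335962, plus strand), the ligand of arterial endothelium and sprouting tip cells, was the least abundant protein-coding member and showed no regional difference past the threshold. It was at 11.6, 9.82, 12.99, 9.54 and 8.49 CPM in anterior controls 1 to 5 and at 12.8, 10.0, 11.5, 12.7 and 9.43 CPM in posterior controls 1 to 5. In DKO 1 to 4 it was at 9.86, 11.3, 7.80 and 10.97 CPM anteriorly and 11.1, 10.1, 9.18 and 11.9 CPM posteriorly. All 4 groups overlapped. The log2 fold change from anterior to posterior was 0.11 in controls (95% interval −0.17 to 0.40, adjusted p = 0.591) and 0.08 in DKO (−0.23 to 0.39, adjusted p = 0.767). The value in controls was 0.04 without control embryo 4 and 0.19 without control embryo 3. Over the same libraries the 10 endothelial markers summed to 368 to 415 CPM in anterior and 233 to 383 CPM in posterior controls. Posteriorly 4 of the 10 were called lower and 0 higher, where 13.3% of all genes were called lower and 12.1% higher.

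Jag1 (ENSMUSG00000027276, chr2:137081456-137116644, minus strand) encodes a Jagged ligand of vessel walls, neural tube domains and epithelia. It was at 37.0, 37.4, 38.2, 36.5 and 36.7 CPM in anterior controls 1 to 5, a narrow range, and at 49.7, 55.7, 49.8, 56.5 and 47.6 CPM in posterior controls 1 to 5. The posterior controls were all higher, by 0.48 on the log2 scale (SE 0.0549, adjusted p = 3.29e-05). In DKO 1 to 4 it was at 41.6, 34.1, 40.0 and 34.6 CPM anteriorly and 49.2, 42.7, 49.3 and 34.5 CPM posteriorly, where the pieces overlapped (log2 fold change 0.23, SE 0.119, adjusted p = 0.242). Posterior DKO 4 held the lowest posterior value.

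Between genotypes, posterior Jag1 averaged 51.9 ± 3.99 CPM in controls (n = 5) and 43.9 ± 7.03 CPM in DKO (n = 4), which differed by −0.24 on the log2 scale (SE 0.103, unadjusted p = 0.0381, adjusted p = 0.451) and by −0.15 without DKO embryo 4 (adjusted p = 0.708). The anterior value was 0.02 (95% interval −0.13 to 0.16, adjusted p = 0.946).

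Jag2 (ENSMUSG00000002799, chr12:112907819-112929776, minus strand), the other Jagged ligand, was at 26.8, 20.8, 31.8, 22.8 and 22.9 CPM in anterior controls 1 to 5 and 31.3, 24.4, 37.0, 33.7 and 26.1 CPM in posterior controls 1 to 5. In DKO 1 to 4 it was at 32.7, 28.3, 28.0 and 27.8 CPM anteriorly and 24.0, 37.1, 32.9 and 31.2 CPM posteriorly. The pieces overlapped as groups in both genotypes. In each of 5 control embryos, however, the posterior piece was the higher one, by 1.14 to 1.48 times. The log2 fold change was 0.29 in controls, with adjusted p = 0.144 without and 0.00610 with the embryo as a block. In DKO it was 0.10 (95% interval −0.17 to 0.38, adjusted p = 0.662), and it was −0.01 without DKO embryo 2, 0.06 without DKO embryo 3 and 0.27 without DKO embryo 1.

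**Figure D2:**
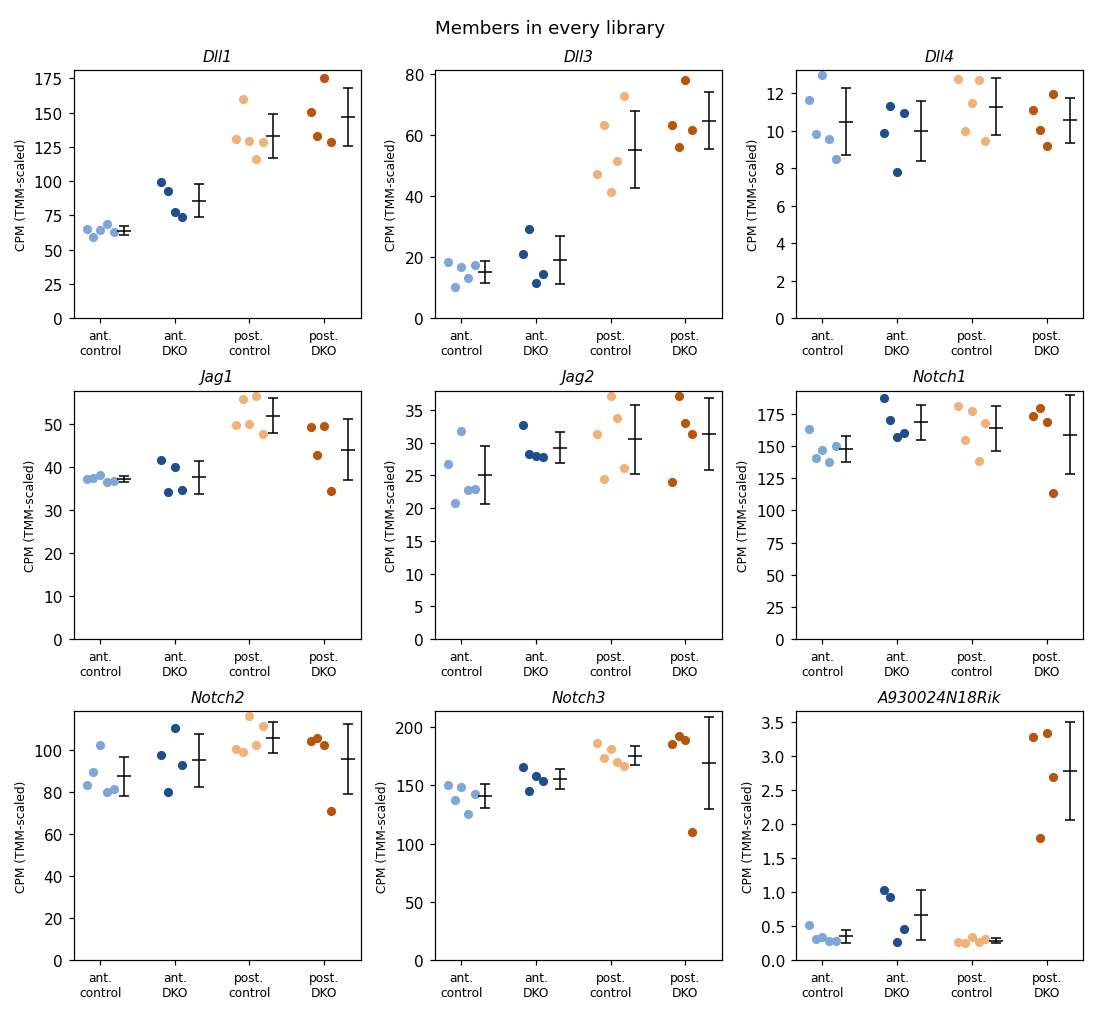
TMM-scaled CPM of the 9 genes in each library (points, in embryo order), by group (ant., anterior; post., posterior), with the mean and SD (bars); axes start at 0 and differ between panels. Posterior libraries lie above all anterior ones for Dll1 and Dll3, and posterior DKO 4 is low for Notch1, Notch2 and Notch3, at 113, 71.0 and 109.7 CPM.

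Among the receptors, Notch1 (ENSMUSG00000026923, chr2:26457903-26516663, minus strand), the receptor of the segmentation clock, endothelium and neural progenitors, varied little between groups. It was at 163, 141, 147, 137 and 150.0 CPM in anterior controls 1 to 5 and 181, 155, 177, 138 and 168 CPM in posterior controls 1 to 5. In DKO 1 to 4 it was at 187, 170.4, 157 and 160.0 CPM anteriorly and 173, 179, 169 and 113 CPM posteriorly. The pieces overlapped in both genotypes, although in each of 5 control embryos the posterior piece was the higher one, by 1.01 to 1.21 times. The log2 fold change was 0.15 in controls, with adjusted p = 0.172 without and 0.0174 with the embryo as a block, and −0.08 in DKO (adjusted p = 0.742).

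Notch2 (ENSMUSG00000027878, chr3:98013527-98150361, plus strand), a receptor broadly expressed in mesenchyme and epithelia, was at 83.7, 89.9, 103, 80.1 and 81.7 CPM in anterior controls 1 to 5 and 101, 99.2, 116, 103 and 112 CPM in posterior controls 1 to 5. In DKO 1 to 4 it was at 97.7, 80.2, 111 and 93.0 CPM anteriorly and 105, 106, 103 and 71.0 CPM posteriorly. In controls it rose posteriorly by 0.28 on the log2 scale (SE 0.0722, adjusted p = 0.0129), with anterior control 3 inside the posterior range. That call was lost without control embryo 4 (adjusted p = 0.0572) or 5 (adjusted p = 0.0641) and with all 18 libraries in one fit (adjusted p = 0.0604). In DKO the difference was 0.01 (95% interval −0.29 to 0.31, adjusted p = 0.964).

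Notch3 (ENSMUSG00000038146, chr17:32120820-32166852, minus strand), the receptor best known from vascular smooth muscle and also present in neural progenitors, was the most abundant receptor per length in every group. It was at 150.5, 138, 148, 125 and 143 CPM in anterior controls 1 to 5 and 187, 173, 181, 169.8 and 166 CPM in posterior controls 1 to 5. All posterior controls were above all anterior controls (log2 fold change 0.32, SE 0.0561, adjusted p = 0.00109). In DKO 1 to 4 it was at 165, 145, 158 and 154 CPM anteriorly and 185, 192, 189 and 109.7 CPM posteriorly, where 3 posterior libraries lay above all anterior ones and DKO 4 below them. The DKO difference was 0.12 (SE 0.154, adjusted p = 0.676) with all embryos and 0.27 (adjusted p = 0.0218, with 7.95% of all genes called higher) without embryo 4. It was 0.02 without DKO embryo 2 and 0.07 without DKO embryo 3.

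Posterior DKO 4 was the lowest posterior library for all 3 receptors and for Jag1. Its total of 20.3 megacounts was inside the range of its group, and its primitive erythroid markers summed to 3392 CPM, the highest of the 9 posterior libraries, against 1642 CPM in the lowest posterior DKO library. The part of blood in these low values was not tested. Dll3 and A930024N18Rik in this library were within the range of the other posterior DKO libraries, and Dll1 was at 129 CPM, next to 133 CPM in DKO 2.

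Of the 8 protein-coding genes, 5 rose from anterior to posterior in controls (Dll1, Dll3, Jag1, Notch2 and Notch3) and 0 fell, where 12.1% of all 15294 genes tested were called higher and 13.3% lower. With the embryo as a block 7 of 8 were called, all but Dll4, against 16.1% of all genes called higher. In DKO 2 of 8 rose, Dll1 and Dll3, and 0 fell, against 8.76% higher and 9.7% lower of 15777. The members' median log2 fold change was 0.30 in controls and 0.11 in DKO, beside −0.01 and 0.01 over all genes. The smaller number in DKO is not shown to be a difference between genotypes, since the test of that difference called 0 of 8, as given below.

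**Figure D3:**
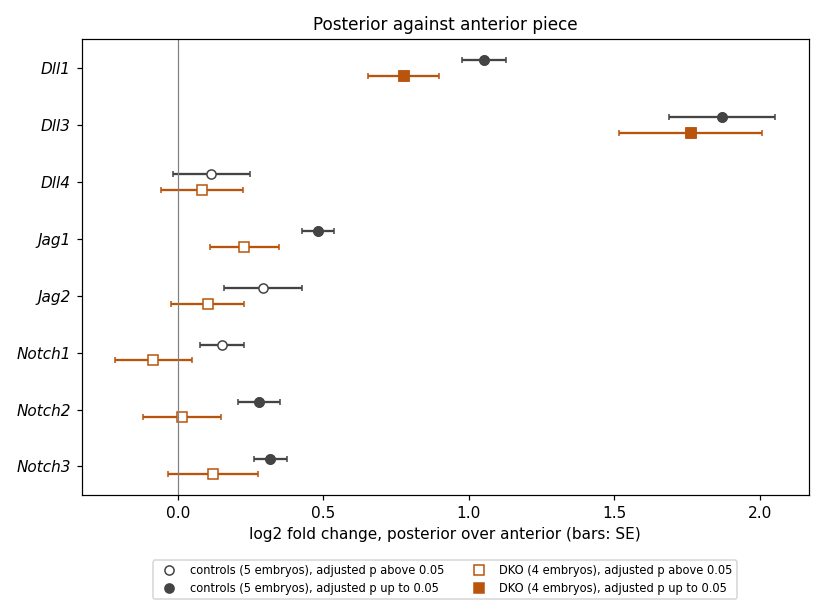
Log2 fold change of the posterior over the anterior piece with its SE for the 8 protein-coding genes, in controls (circles) and DKO (squares); filled symbols passed the adjusted threshold of 0.05. Dll3 stands at 1.87 and 1.76 and Dll1 at 1.05 and 0.78, while the other values lie between −0.08 and 0.48.

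The comparison of DKO with control called 0 of the 8 protein-coding genes in either piece by edgeR, and few genes at all. In the anterior piece 0 of 8 passed, against 0.0394% of 15238 genes, and DESeq2 called 1, Dll1, against 1.94% of all genes by that tool. At an unadjusted p below 0.05 there were 3 (Dll1, Notch1 and Notch3), against 13% of all genes. Only Dll1 had groups that did not overlap, a property of 5.08% of genes. Notch1 differed by 0.19 (SE 0.0654, adjusted p = 0.261) and Notch3 by 0.14 (SE 0.0599, adjusted p = 0.348), and 7 of 8 values were positive, with a median of 0.17 beside 0.00 over all genes.

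In the posterior piece 0 of 8 passed by edgeR and by DESeq2, against 0.0126% of 15936 genes by edgeR and 1.01% by DESeq2. Jag1 alone had an unadjusted p below 0.05, against 11% of all genes. None of the 8 had groups that did not overlap, which 4.27% of genes had. The members' median was −0.05, and 3 of 8 values were positive. The values of Notch1 and Notch3, −0.05 and −0.06, became 0.08 and 0.10 without DKO embryo 4.

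The difference of the DKO effect between the pieces called 0 of 8 by edgeR and by DESeq2, where edgeR called 0% and DESeq2 0.0609% of all 16428 genes, and 0 of 8 had an unadjusted p below 0.05, against 3.45% of all genes. All 8 estimates were negative (posterior effect minus anterior effect), with a median of −0.22 beside 0.01 over all genes. They ran from −0.28 for Dll1 (95% interval −0.59 to 0.03) to −0.03 for Dll4 (−0.45 to 0.38). The share of negative estimates over all genes is not given here. The estimates share the same 18 libraries, and those of Dll3 and Dll4 changed sign when single embryos were left out. Over the alternatives the estimate of Notch3 ran from −0.30 to −0.04 and that of Jag2 from −0.30 to −0.02. That of Dll1 was −0.18 without control embryo 2 and −0.43 without DKO embryo 3.

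**Figure D4:**
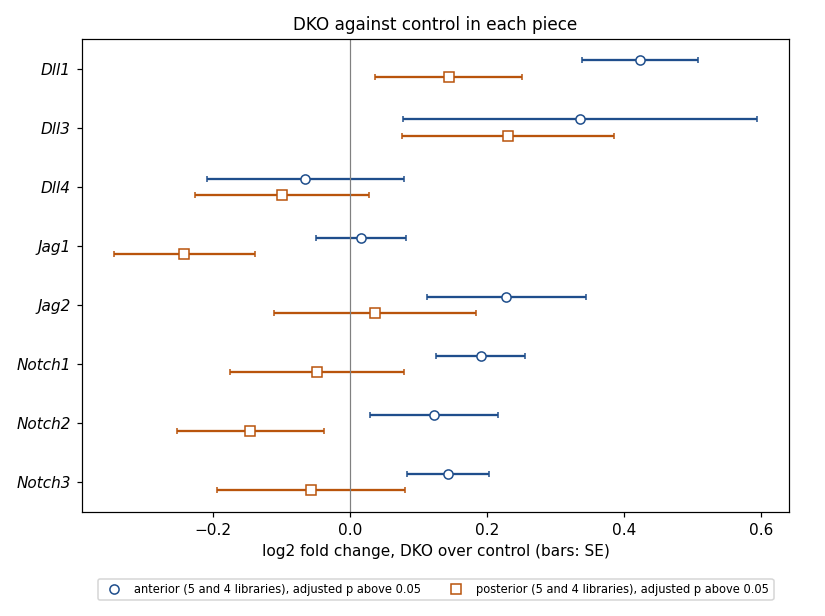
Log2 fold change of DKO over control with its SE for the 8 protein-coding genes in the anterior (circles) and posterior piece (squares); open symbols did not pass the adjusted threshold of 0.05, and none did. Anterior Dll1 has the highest value, 0.42, and posterior Jag1 the lowest, −0.24.

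Per kilobase of exon, which allows levels of different genes to be set side by side, Dll1 led in posterior controls with 31.5 ± 3.84 CPM per kb (SD, n = 5). Notch3 (21.7 ± 1.02) and Dll3 (19.3 ± 4.44) followed with overlapping ranges. Notch1 (11.5 ± 1.23), Notch2 (9.85 ± 0.695) and Jag1 (8.90 ± 0.684) came next, each overlapping its neighbour in that order. Jag2 (4.38 ± 0.757), Dll4 (2.93 ± 0.398) and A930024N18Rik (0.0725 ± 0.00940) closed the order without overlap. In anterior controls Notch3 (17.4 ± 1.25) and Dll1 (15.2 ± 0.809) overlapped at the top, and Dll3 stood at 5.31 ± 1.22, between Jag1 (6.38 ± 0.115) and Jag2 (3.59 ± 0.627), whose ranges it overlapped.

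The orders in DKO were close to these. Dll1 and Notch3 overlapped at the top of the anterior order, at 20.4 ± 2.88 and 19.2 ± 1.04 CPM per kb (n = 4), and in the posterior order Dll1 led alone with 34.8 ± 5.02, ahead of Dll3 (22.7 ± 3.28) and Notch3 (20.9 ± 4.89), which overlapped. Summed per kilobase, the 5 ligands came to 33.2 ± 2.42 in anterior and 67.0 ± 5.81 in posterior controls, and the 3 receptors to 35.9 ± 2.28 and 43.0 ± 2.32. Within the ligand sum of controls, the share of Dll3 was 15.9 ± 2.85% anteriorly and 28.7 ± 4.84% posteriorly, while that of Dll1 was 45.9 ± 2.70% and 46.9 ± 3.32%. The gene length used matters for some genes: with the longest transcript in place of all exons, posterior control Notch1 was at 17.3, Dll1 at 37.1 and Jag2 at 5.97 CPM per kb.

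Among the other 45 pathway genes, the Hes and Hey targets differed by region in all 6 of 6 cases, in both directions and in both genotypes. In controls Hes7, the oscillating repressor of the segmentation clock, rose by 5.76 on the log2 scale, from 0.276 ± 0.128 CPM in the anterior to 15.9 ± 3.78 CPM in the posterior piece (SD, n = 5). Hey2 rose by 1.14, Hey1 by 0.78 and Hes1 by 0.61, while Hes5, the target in neural progenitors, fell by 1.57 and Heyl by 0.95. In DKO the same 4 rose and the same 2 fell, with Hes7 at 6.93 and Hes5 at −1.54. Hes5 and the 10 neural markers fell posteriorly together, and Hes7 and the 8 presomitic markers rose together.

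Over the whole list, 10 of 43 genes tested rose and 8 fell posteriorly in controls, with a median of −0.02, where 12.1% of all genes were called higher and 13.3% lower. Notch4, the endothelial receptor, rose by 0.90, from 16.4 ± 1.56 to 30.5 ± 2.77 CPM (n = 5). Of the 10 endothelial markers, 0 were called higher and 4 lower, and 2 had positive log2 fold changes. Dner, a neuronal ligand, fell by 3.19 at few counts (14 to 22 anteriorly, 0 to 12 posteriorly), and Dtx4, a ubiquitin ligase of the pathway, fell by 0.99. Of the genes that add sugars to receptors, Mfng fell by 0.77, and Lfng, which oscillates with the clock, was at −0.39 (adjusted p = 0.102). Rbpj was at −0.00 (adjusted p = 0.992). The 4 genes for ubiquitination and endocytosis of ligands had 0 calls, and 0 of 4 had an unadjusted p below 0.05, beside 35.5% of all genes. In DKO 7 of 45 rose and 8 fell, beside 8.76% higher and 9.7% lower of all genes, with Notch4 at 1.11 and Rbpj at −0.09 (adjusted p = 0.506).

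**Figure D5:**
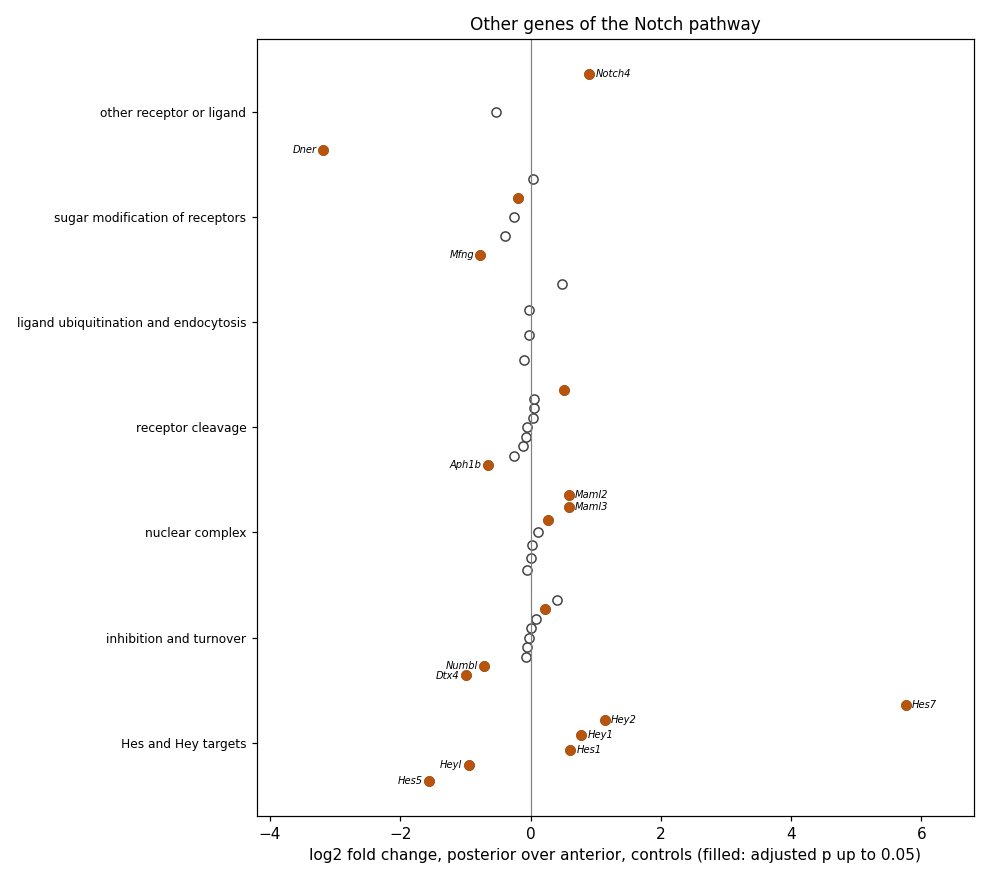
Log2 fold change of the posterior over the anterior piece in controls for the 43 other pathway genes tested, by role; filled points passed the adjusted threshold of 0.05, and the largest of these are named. Hes7 stands apart at 5.76 and Dner at −3.19, and the targets split into 4 higher and 2 lower.

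Between genotypes, 1 of 42 pathway genes passed in the anterior piece, where 0.0394% of all genes did. It was Hes5, with a log2 fold change of 0.66 (adjusted p = 0.0455), beside the neural sums given above. In the posterior piece 0 of 44 passed by edgeR, beside 0.0126% of all genes, and 4 had an unadjusted p below 0.05, beside 11% of all genes. The values there were Hes5 at 0.69 (adjusted p = 0.196), Hes7 at 0.41 (adjusted p = 0.628), Hes1 at 0.04, Hey1 at −0.20, Lfng at 0.20, Notch4 at −0.06 and Rbpj at −0.20. The difference of the DKO effect between pieces called 0 of 45 by edgeR, with 1 at an unadjusted p below 0.05, beside 3.45% of all genes.

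Across the 18 libraries, Dll1 and Dll3 followed each other most closely among the members (Pearson r = 0.938 for log2 CPM), and r was 0.572 for deviations from the 4 group means. Notch1 and Notch3 had r = 0.803 and 0.868 for deviations, and Notch2 and Notch3 0.823 and 0.765, with posterior DKO 4 low for each. These values are descriptions, since the libraries share embryos and pieces. Among genes with a mean of at least 50 counts, those most like Dll1 were Pmaip1 (r = 0.968), Stra6l, Gpc4, Sulf1 and Myo5b, and those most like Dll3 were Spock2 (0.978), Tesk2, Fgfrl1, Gdf11 and Hoxb5os. Dll4 had no close match, its highest being L3hypdh (0.794), then Atp6v1h, Proser3, Rhoc and Maged1. Jag1 was most like Abr (0.922), Sh3d19, Etl4 and Kif20a, and Notch3 most like Arhgap17 (0.930), Sipa1l3, Klhl34, Cachd1 and Plxnb1. A930024N18Rik was most like Sesn2 (0.854), Ppib, Thoc6, Bsg and Cpt1c. The 18 libraries include the posterior DKO ones by which it was chosen, so this list partly repeats that choice. For deviations from the 4 group means the list held other genes: Plgrkt (0.778), Lsamp, Nfam1, Hoxb6 and Rnf11. The correlation of A930024N18Rik with Dll1 was 0.514, and 0.554 for deviations from the group means.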

How the data were processed

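Poly(A) RNA of 18 tissue pieces was read from a single end at 61 bp, per the labels' protocols. The deposited table holds expected counts per Ensembl gene (GRCm38), made by the authors with CASAVA, cutadapt and RSEM, per the submitters' processing notes; versions, aligner and the use of strand are not given in the sources used here. Each library carries 1 sex label and 1 somite number and was taken as coming from 1 embryo. Between genotypes within a piece, each embryo gives 1 library, and p-values measure the spread between embryos. The main fits between pieces, and of the difference between pieces, hold both libraries of each embryo without an embryo term. Their p-values, SEs and intervals treat these libraries as independent. Fits with the embryo as a block were an alternative there.

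Expected counts were rounded and fitted with edgeR 4.0.16 (R 4.3.3): filterByExpr (minimum count 10), TMM scaling, glmQLFTest, Benjamini-Hochberg adjustment over all genes tested, threshold 0.05. An SE is the log2 fold change divided by the square root of F, and 95% intervals use the t distribution with its degrees of freedom. A prior of 2 counts entered log2 CPM. The code was checked on simulated data. DESeq2 1.42.0, limma-voom (limma 3.58.1), other scalings, filters, somite number as covariate, one fit over all libraries and leaving out each embryo were the alternatives. Lengths, positions and symbols came from GENCODE M21 (53360 of 53465 identifiers found). A promoter window was found for each of the 8 protein-coding genes, 9 windows in all; A930024N18Rik was not matched.

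Libraries were paired by genotype, sex label and somite number, a combination unique to each embryo as labelled. Control embryos 1 and 5 both have 23 somites and differ only by the sex label, which the counts of control embryo 1 contradict. Deviations from group means correlated at r = 0.256 to 0.570 within the 9 pairs, and at −0.283 to 0.0916 over 32 pairs of different embryos of a genotype. The genes and lists here were chosen with earlier results of these data known. Other genes were named as follows: pathway genes past the threshold, up to the 6 with the largest change, with Notch4, Rbpj, Lfng, Hes1, Hes5, Hes7 and Hey1 always; tested neighbours within 250 kb; and the 5 most correlated genes, of which 1 is not reported here. Floors cover counting error only, since reads carry no molecular identifiers.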

Additional observations from a re-analysis of the deposited data

Results flagged for a closer look

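In 5 of 36 combinations of gene and group, one library stood far from the rest of its group by Dixon's criterion, where chance gives about 1 in 20. Posterior DKO 4 did so for all 3 receptors, with Notch1 at 113 CPM, Notch2 at 71.0 CPM and Notch3 at 109.7 CPM, each the lowest of its group. Jag2 stood high in anterior DKO 1, at 32.7 CPM. A930024N18Rik stood high in anterior control 1, at 0.519 CPM, the embryo whose sex label its counts contradict.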

How the results depend on the processing

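Of 624 values of single genes under the alternatives, 598 kept their direction and their side of the threshold, and all 8 genes kept their direction in the comparison of regions in controls. The count of members called between genotypes in the anterior piece went from 0 to 1 (Dll1) with DESeq2 and to 1 (Dll1) without the filter on low counts. With the embryo as a replicate block, 7 rather than 5 members were called between pieces in controls, and the block changed no other call. Notch2 between pieces in DKO was −0.0008 with upper-quartile scaling, in place of 0.01. Signs also turned when single embryos were left out, only for values that had not passed the threshold. Between pieces in DKO, Notch2 then ranged from −0.1091 to 0.1144, Jag2 from −0.0066 to 0.2734 and Notch1 from −0.1501 to 0.0149. Between genotypes, anterior Jag1 ranged from −0.0387 to 0.0605 and Dll4 from −0.1303 to 0.0328, and posterior Jag2 from −0.0537 to 0.1441, Notch1 from −0.1102 to 0.0775 and Notch3 from −0.1215 to 0.0973. The difference between pieces ranged from −0.3858 to 0.23 for Dll3 and from −0.1181 to 0.0543 for Dll4. The cause was not tested. Depth limits A930024N18Rik most: its control libraries hold 4.39 to 9.97 counts and anterior DKO 3 holds 4.51, against a floor of 3.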
